A study of Mus musculus with 33 samples.

Results

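Cell cycle and DNA replication genes were examined as 1 group of 38 named genes, out of 32245 genes in each of 3 expression tables from mouse cardiomyocytes. The 38 were chosen by name and role, not by their values, though with earlier results of these data known. They were 5 G1 cyclins and kinases, 4 G1/S regulators, 9 genes of DNA replication and nucleotide synthesis, 8 mitotic kinases, cyclins and Cdc20, and 12 genes of the chromosome, kinetochore, spindle and cytokinesis. All 38 were present in the 3 tables and all 38 passed the filter on low values in each.

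Nuclear RNA of cardiomyocytes was sequenced after depletion of ribosomal RNA, in lines that carried a cardiomyocyte-specific knockout of Ptpmt1, a mitochondrial phosphatase of the cardiolipin synthesis pathway. The FST line combined it with a mutation of Eif2a, the gene of the translation initiation factor eIF2α: 3 libraries came from double mutants, 3 from the Ptpmt1 knockout alone, 3 from the Eif2a mutant alone and 3 from controls. The PHT line combined it with a knockout of Hri, a kinase of eIF2α: 2 libraries came from double knockouts, 3 from the Ptpmt1 knockout alone, 2 from the Hri knockout alone and 2 from controls. The PTGC line combined it with a knockout of Gcn2, another kinase of eIF2α: 3 libraries came from double knockouts and 3 from controls, with neither knockout alone, so the share of each gene in that contrast cannot be told apart. The labels call the Hri knockout alone cardiomyocyte-specific and give no such restriction in the double knockout. The labels give neither the Cre driver, nor the age of the mice, nor the eIF2α residue that was mutated. Of 33 samples, 27 were analysed here. The other 6, from a Ptpmt1 line of their own, were not analysed here.

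A cell enters the division cycle when D-type cyclins with Cdk4 and Cdk6 phosphorylate the retinoblastoma proteins and release E2F factors, which switch on cyclin E and the replication genes. The MCM helicase is loaded at origins, DNA is copied in S phase, and cyclin A and cyclin B with Cdk1 then drive mitosis, which ends when Cdc20 directs the destruction of cyclin B. Mouse cardiomyocytes divide before and shortly after birth and largely leave the cycle as they mature, often with a last round of DNA synthesis that gives cells with a pair of nuclei.

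The promoters of Rrm2, Ccnb1, Cdc20, Mki67 and Cenpf are printed here, because they hold DNA words tied to cell cycle transcription and belong to genes described below. They were picked after the word matches and the values were seen. Each is the 250 bases before the transcription start on the gene's strand, as RefSeq places that start (GRCm38.p6), 5′ to 3′. Capitals mark CCAAT (the word bound by NF-Y), TTTGAA (the cell cycle homology region, CHR) and 4 words bound by E2F factors, each on either strand. The E2F words searched were TTCCCGC and its variants TTGGCGC, then also TTCGCGC, and finally the variant TTGCCGC.
Rrm2: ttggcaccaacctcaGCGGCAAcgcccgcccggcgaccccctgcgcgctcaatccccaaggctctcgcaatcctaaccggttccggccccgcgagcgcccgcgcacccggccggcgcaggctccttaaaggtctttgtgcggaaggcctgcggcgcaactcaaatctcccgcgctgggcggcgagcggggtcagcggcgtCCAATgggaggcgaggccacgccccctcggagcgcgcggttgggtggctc
Ccnb1: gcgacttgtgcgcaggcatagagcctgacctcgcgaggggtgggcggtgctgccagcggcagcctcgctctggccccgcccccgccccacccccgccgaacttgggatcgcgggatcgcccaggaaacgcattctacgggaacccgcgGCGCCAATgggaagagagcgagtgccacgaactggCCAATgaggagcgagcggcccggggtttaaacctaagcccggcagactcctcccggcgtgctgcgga
Cdc20: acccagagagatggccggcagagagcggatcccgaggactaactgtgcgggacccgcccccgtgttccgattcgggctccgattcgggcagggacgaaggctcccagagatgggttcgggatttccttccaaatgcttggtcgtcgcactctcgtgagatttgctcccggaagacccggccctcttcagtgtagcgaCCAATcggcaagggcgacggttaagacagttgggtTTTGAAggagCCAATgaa
Mki67: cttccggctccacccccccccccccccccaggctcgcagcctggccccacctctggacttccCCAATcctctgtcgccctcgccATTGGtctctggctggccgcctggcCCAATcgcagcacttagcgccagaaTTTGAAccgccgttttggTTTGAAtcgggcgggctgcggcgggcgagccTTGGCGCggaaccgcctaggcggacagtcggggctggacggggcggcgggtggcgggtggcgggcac
Cenpf: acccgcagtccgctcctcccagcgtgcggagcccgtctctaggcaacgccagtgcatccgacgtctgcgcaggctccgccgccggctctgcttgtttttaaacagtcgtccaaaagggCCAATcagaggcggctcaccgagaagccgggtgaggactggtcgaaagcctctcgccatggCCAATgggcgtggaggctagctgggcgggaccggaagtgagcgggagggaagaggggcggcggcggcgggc
RefSeq and the GENCODE gene spans place some starts differently, so the Rrm2, Ccnb1 and Cdc20 windows reach past the GENCODE start into the gene. The windows lie at chr12:24708004-24708253 (+ strand) for Rrm2, chr13:100786487-100786736 (− strand) for Ccnb1, chr4:118437344-118437593 (− strand) for Cdc20, chr7:135716380-135716629 (− strand) for Mki67 and chr1:189688087-189688336 (− strand) for Cenpf. In Ccnb1 an E2F word and a CCAAT word overlap in GCGCCAAT. In Cdc20 the CHR word begins 18 bases before the RefSeq start, with a CCAAT word 8 bases before that start. This last CCAAT word of Cdc20, and the last of Ccnb1, lie inside the GENCODE gene span. Mki67 holds 6 matches, of all 3 kinds.

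The RefSeq table held promoters for 31 of the 38 genes, all but Aurkb, Ccna2, Ccnd1, Ccnd2, Ccne2, Mcm4 and Tpx2. CCAAT was found in 23 of the 31 (74.2%), against 34.5% of all 27025 promoters of the same length. An E2F word was found in 8 of the 31 (25.8%), against 7.97% of all promoters, and TTTGAA in 7 of the 31 (22.6%), against 16.3%. By role, CCAAT was present in 6 of 6 promoters of the mitotic kinases, cyclins and Cdc20, in 7 of 8 of the replication genes and in 0 of 3 of the G1 cyclins and kinases. The 3 kinds of word can share bases, and a match describes the letters only.

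The deposited values are counts divided by a size factor, so they are compared between libraries of 1 table and not between tables or, since they are not per length, between genes. Recovered reads ranged between 1887978 and 12583868 per library in the FST table, between 10739569 and 19405261 in PHT and between 10795644 and 19326112 in PTGC. The lowest count of a cell cycle gene was 41 reads, for E2f1 in FST double mutant 2, against a lowest of 223 in PHT and 246 in PTGC. Ptpmt1 itself, whose exon overlaps that of Kbtbd4, separated the knockouts from the libraries with intact Ptpmt1 in each table. It stood at 31.3 to 49.2 in the 6 FST knockout and double mutant libraries against 150 to 175 in the other 6, at no more than 78.1 in the 5 PHT libraries against 241 to 289 in the other 4, and at 66.1 to 74.5 in PTGC double knockouts against 288 to 349 in their controls. With 1 library left out at a time, its log2 difference from control ran from -2.662 to -2.315 in PHT Ptpmt1 knockouts. In PHT double knockouts it ran from -1.885 to -1.627. In FST it ran from -2.271 to -2.089 in Ptpmt1 knockouts and from -1.894 to -1.744 in double mutants. Relative to control, more Ptpmt1 signal thus remained in the doubles of both lines than in the Ptpmt1 knockouts. None of 12 cardiomyocyte markers was at 0 in any group. The labels give each sample a number but do not say that the samples are separate animals or preparations, so p-values measure the spread between these libraries. In bulk RNA, fewer cells of a type and less RNA per cell cannot be told apart.

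The 38 genes together took similar shares of the signal in the groups of the FST table. In FST the share was 0.614% to 0.673% in double mutants, 0.637% to 0.716% in Ptpmt1 knockouts, 0.610% to 0.673% in Eif2a mutants and 0.620% to 0.719% in controls, and the groups overlapped. In PHT it was 0.597% and 0.661% in double knockouts, 0.578% to 0.593% in Ptpmt1 knockouts, 0.575% and 0.640% in Hri knockouts and 0.586% and 0.627% in controls. Both PHT double knockouts lay above all the Ptpmt1 knockouts in this share, while the other pairs of PHT groups overlapped. In PTGC the groups did not overlap, with 0.622% to 0.651% in double knockouts and 0.653% to 0.744% in controls. Within groups the genes had a median SD of 0.14, 0.11 and 0.12 on the log2 scale in FST, PHT and PTGC, against 0.19, 0.15 and 0.17 over all tested genes. The genes were not matched for signal, and genes with few reads vary more by sampling.

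**Figure D1:**
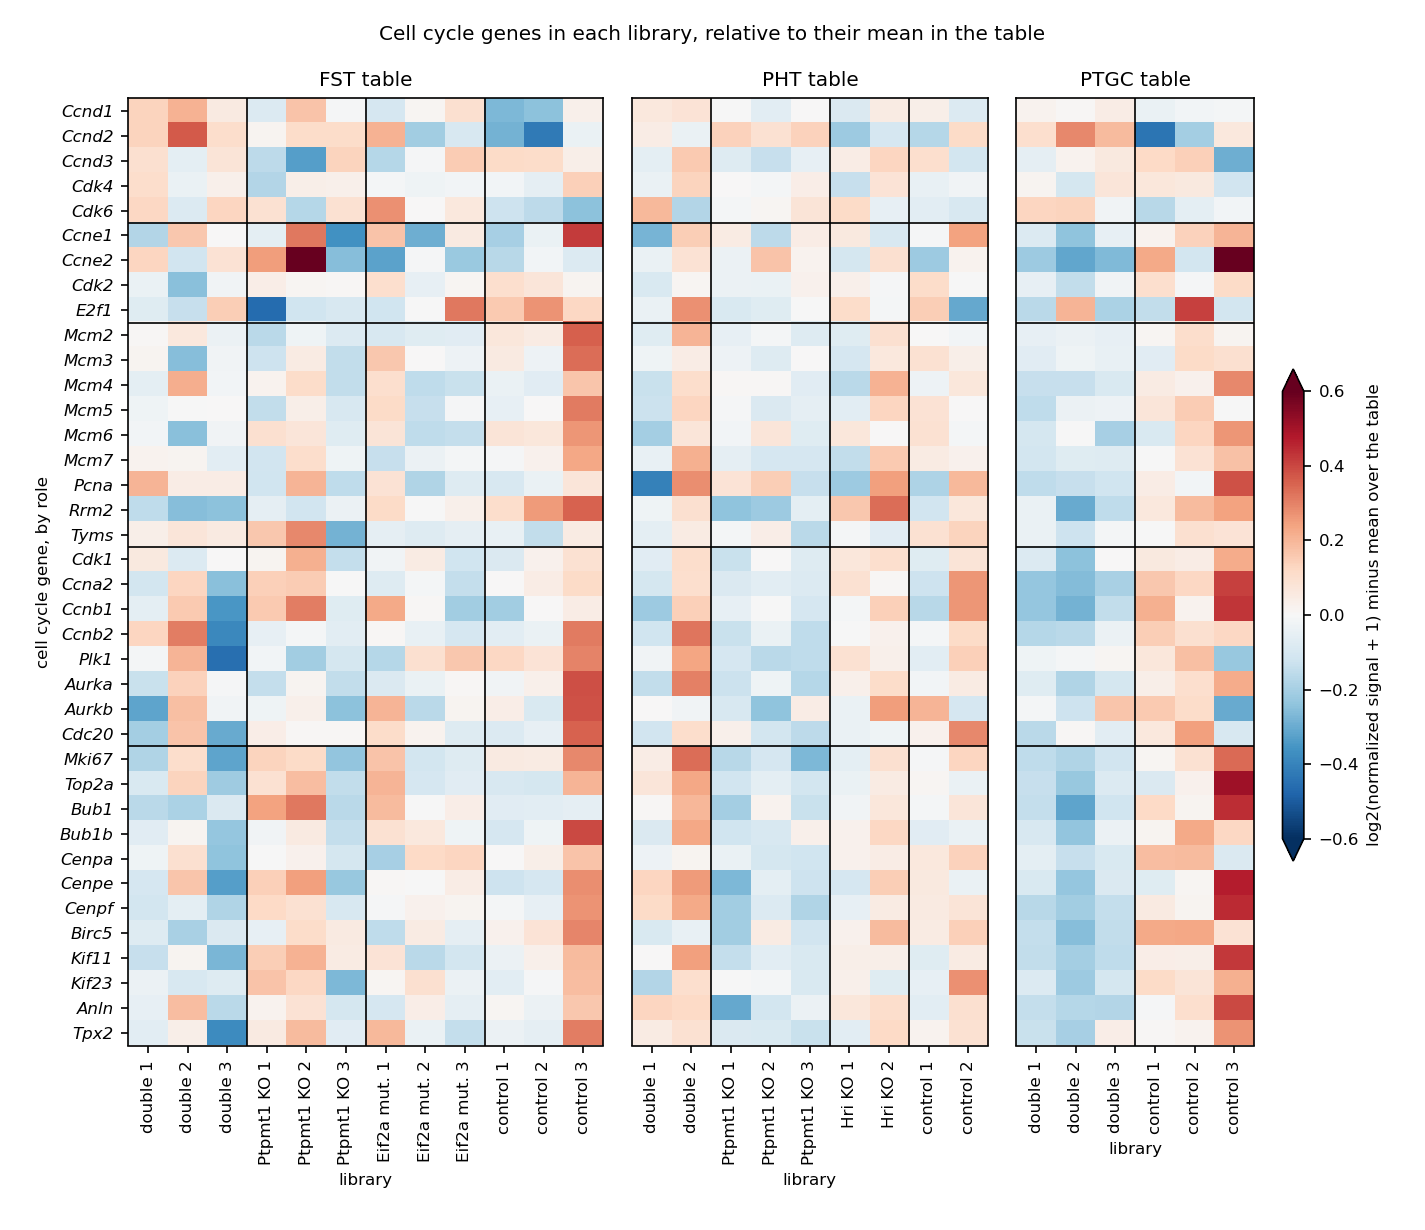
Each column is 1 of 27 libraries and each row 1 of the 38 genes, ordered by role, and colour gives log2(signal + 1) minus the gene's mean over that table, capped at 0.6 in either direction. Most rows of the PTGC panel are lower in the 3 double knockouts than in the 3 controls, while Ccnd2, Cdk6 and, faintly, Ccnd1, Ccnd3 and Aurkb have higher means in the double knockouts.

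Of 494 tests of these genes, 38 genes in each of 13 comparisons, 1 passed an adjusted p of 0.05 in limma's test on log2(value + 1) with Benjamini-Hochberg adjustment over all tested genes. It was Rrm2 in FST double mutants, which fell to 948 ± 38.7 against 1304 ± 113 in controls (SD, n = 3 each). For all 494 the 95% interval of the difference stayed within 2-fold, and for 467 of them within 1.5-fold. Fold changes below are differences on the log2(value + 1) scale ± SE. In each comparison the median over all tested genes lay between -0.01 and 0.01.

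In PTGC double knockouts most cell cycle genes were lower than in controls, by a median of 0.23 on the log2 scale (a difference of -0.23), but none passed the adjusted threshold, against 0.743% of all tested genes. Of the 38, 33 had a negative difference, against 49.5% of all tested genes. At an unadjusted p under 0.05 there were 17 of the 38, 16 lower and 1 higher (Ccnd2), against 11.5% of all genes. In 24 genes each double knockout library lay below each control, against 9.05% of all genes, and in Ccnd1 and Ccnd2 each lay above, against 8.98%. edgeR's quasi-likelihood test on the recovered reads called 1 of the 38 (Ccna2), and DESeq2 called Ccna2 and Ccnb1. With 1 library left out at a time the genes with no overlap on the lower side numbered 24 to 28, and the median ran between -0.26 and -0.17. With fewer libraries no overlap is easier to reach for any gene, and the share of all genes was not computed for such reduced sets. Control 3 was the highest of the 6 libraries in 21 of the 38 genes, and double knockout 2 the lowest in 20. The calls moved with single libraries: Bub1, Ccna2, Ccnb1 and Ccne2 passed without control 2, and Birc5, Ccna2 and Ccnd2 without control 3.

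Erythroid genes were also lower in PTGC double knockouts. All 12 erythroid markers had a negative difference, with a median of -0.70 and 8 at an unadjusted p under 0.05, against 11.5% of all genes. Their summed share was 0.126% to 0.165% in double knockouts and 0.140% to 0.397% in controls, and no marker was at 0. Control 3 had the highest share of cell cycle genes, 0.744%, and the lowest erythroid share among the controls, 0.140%. Fibroblast markers were positive in 6 of 8, 1 at an unadjusted p under 0.05 and none called, with shares of 0.165% to 0.189% in double knockouts and 0.138% to 0.164% in controls. These fibroblast shares did not overlap. Mural cell shares did not overlap either, on the lower side, with 0.133% to 0.157% in double knockouts and 0.168% to 0.180% in controls. The part of RNA of other cells in the cell cycle differences was not tested.

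In the PHT line the Ptpmt1 knockout alone had lower values in 31 of the 38 genes than its controls, with a median difference of -0.11, against 49.1% of all tested genes with a negative difference. None was called in limma, edgeR or DESeq2, against 0.301% of all genes in limma, and 4 of the 38 were under an unadjusted p of 0.05, all lower, against 4.79% of all genes. In 14 genes each knockout library lay below both controls, against 11.6% of all genes, and in Cdk4 and Cdk6 each lay above, against 12%. These counts rest on the 2 controls: without control 1 there were 26 lower and 4 higher, and without control 2 there were 21 lower and 7 higher. The higher count was 3 without Ptpmt1 knockout 1 and 3 without Ptpmt1 knockout 2. No share of all genes was computed for these reduced sets, in which groups of any gene separate more easily. The Hri knockout alone showed no such shift. None of the 38 was called there by any of the 3 tools, against 0.02% of all genes, 1 (Rrm2, +0.27) had an unadjusted p under 0.05, against 3.24%, and the median was 0.01.

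PHT double knockouts lay above the Ptpmt1 knockout in 30 of the 38 genes, with a median difference of +0.09. None was called in limma, against 0.327% of all genes, while 10 of the 38 were under an unadjusted p of 0.05, all higher, against 8.29% of all genes. edgeR called none and DESeq2 called Mki67 and Cenpf. In 12 genes each double knockout library lay above each Ptpmt1 knockout library, against 11.9% of all genes, and in Ccnd2 each lay below, against 12%. With 2 double knockouts this rests on each of them. Without double knockout 1 there were 31 such genes, with Mki67 at +0.52, and without double knockout 2 there were 13 higher and 12 lower. Each of these sets holds 1 double knockout, so groups of any gene separate more easily, and no share of all genes was computed for them. Double knockout 2 was the highest of the 9 libraries in 19 genes. The part of the higher Ptpmt1 signal left in the double knockouts in these differences was not tested.

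Against their controls the PHT double knockouts had a median of +0.05, with 0 of the 38 called by any of the 3 tools (0.0267% of all genes in limma) and 0 under an unadjusted p of 0.05 (6.58%). Both double knockouts lay above both controls in 5 genes (16.2% of all genes) and below both in 3 (16% of all genes), Birc5, Cenpa and Tyms. Against the Hri knockout the median was +0.03, again with 0 called by any of the 3 tools (0.02%) and 0 under that p (5.83%). The interaction, the double against the Hri knockout minus the Ptpmt1 knockout against control, was positive in 32 of the 38 genes, with a median of +0.09. None was called by any of the 3 tools (0.12% of all genes in limma), and 3 had an unadjusted p under 0.05 (4.64%), all positive: Cenpf, Mki67 and Cenpe.

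Erythroid markers had differences of the same sign as most mitotic genes in 2 PHT comparisons. In the Ptpmt1 knockout 12 of 12 had a negative difference from control, 9 at an unadjusted p under 0.05, against 4.79% of all genes. None was called, against 0.301% of all genes. Their median was -1.10, with shares of the signal of 0.0666% to 0.303% against 0.355% and 0.436%. In the double knockouts 12 of 12 lay above the Ptpmt1 knockout, 11 at an unadjusted p under 0.05, against 8.29% of all genes. Of the 12, 1 was called (Hbb-bs), against 0.327% of all genes. Their median was +1.75, with shares of the signal of 0.450% and 0.782%. Macrophage markers were also positive in 7 of 7 in that comparison, 4 at an unadjusted p under 0.05 and none called, with a median of +0.73 and shares of 0.00444% and 0.00935% in double knockouts against 0.00345% to 0.00490% in Ptpmt1 knockouts. No erythroid or macrophage marker was at 0. Sex, read from sex-linked genes, also ran with the groups: both controls were female, the Hri and double knockouts were male, and the Ptpmt1 knockouts were 1 male and 2 females. The part of any of these in the differences was not tested. None of the 38 was called in any PHT comparison with a term for sex, and none without it. Only the Ptpmt1 knockouts held both sexes, so the fit with that term says little on the part of sex.

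In the FST line the Ptpmt1 knockout alone had few members under an unadjusted p of 0.05. Of the 38, 26 had a negative difference from control and the median was -0.05. None was called in limma, against 0.504% of all genes, and 4 had an unadjusted p under 0.05, against 13.4%: Rrm2, Mcm2 and E2f1 on the lower side and Ccnd2 on the higher. edgeR called none and DESeq2 called Rrm2. No overlap between groups was seen on the lower side in 4 genes (E2f1, Mcm2, Rrm2 and Plk1), against 9.48% of all genes, and on the higher side in Ccnd2, against 9.61%. Single libraries moved these results. Without Ptpmt1 knockout 3 there were 6 higher and 5 lower, and 3 genes passed (Ccne2, Bub1 and Rrm2). Without Ptpmt1 knockout 2 there were 2 higher and 10 lower, and without control 3 there were 4 higher and 5 lower. No overlap is easier to reach in these reduced sets, and the share of all genes was not computed for them.

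Other measures differed between these FST groups as well. All 3 Ptpmt1 knockouts and all 3 Eif2a mutants were male by their sex-linked genes, against 1 male and 2 females among the controls and 2 males and 1 female among the double mutants. Of 12 cardiomyocyte markers, 11 were negative in the Ptpmt1 knockout, 7 at an unadjusted p under 0.05 (13.4% of all genes) and none called. Their median was -0.27, with shares of the signal of 6.43% to 8.11% in knockouts against 7.16% to 7.97% in controls. In the double mutants 9 of the 12 were negative, 5 at that p (10.1% of all genes) and none called, with a median of -0.23 and shares of 6.81% to 8.44%. Fibroblast markers were positive in 8 of 8 in the Ptpmt1 knockout, 1 at that p and none called, with a median of +0.26. Ptpmt1 knockout 3 had a fibroblast share of 0.291%, against 0.148% and 0.1499% in the other Ptpmt1 knockouts and 0.135% to 0.164% in controls. Of 6 mural cell markers, 3 were positive and 3 negative in the Ptpmt1 knockout, and 1 was called (Cspg4, lower), against 0.504% of all genes. Their shares were 0.0885% to 0.159% in knockouts and 0.118% to 0.192% in controls. None of the cardiomyocyte or fibroblast markers was at 0, and the part of sex or of other cells in the FST differences was not tested.

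The Eif2a mutant alone had 32 negative differences and a median of -0.08, with 0 called by any of the 3 tools (0.036% of all genes in limma) and 4 under an unadjusted p of 0.05 (7.97%). Those were Cdk6 at +0.29, Mcm2 at -0.24, Mcm6 at -0.21 and Rrm2 at -0.19.

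FST double mutants had 30 negative differences from control and a median of -0.11, which was -0.03 without control 3. Of the 38, 1 was called, Rrm2, against 0.144% of all genes, and 6 had an unadjusted p under 0.05, 3 on each side, against 10.1%. Each double mutant library lay below each control in 6 genes (Cdk2, Mcm6, Rrm2, Bub1, Cenpf and Birc5), against 9.87% of all genes, and above in 3 (Ccnd1, Ccnd2 and Cdk6), against 9.64%. The lower count was 15 without double mutant 2, the library with the fewest reads, and 10 without control 1. The higher count was 5 without control 3. Reduced sets make no overlap easier for any gene, and the share of all genes was not computed for them. Control 3 was the highest of the 12 libraries in 22 genes and double mutant 3 the lowest in 14. Of the 12 erythroid markers, 11 were negative in the double mutants with a median of -0.75 and none called, at shares of 0.0743% to 0.114% in double mutants and 0.0695% to 0.277% in controls, and their part was not tested. Against the Ptpmt1 knockout the double mutants had a median of -0.02, with 0 called by any of the 3 tools (0.878% of all genes in limma) and 2 under an unadjusted p of 0.05 (13.8%), Bub1 and Kif11, both lower. Against the Eif2a mutant the median was -0.06, with 0 called by any of the 3 tools (0.0072%) and 1 under that p (8.14%), Rrm2. The interaction had a median of +0.02, 0 called by any of the 3 tools (0.0216%) and 2 under that p (7.06%), Mcm2 on the positive side and Bub1 on the negative.

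**Figure D2:**
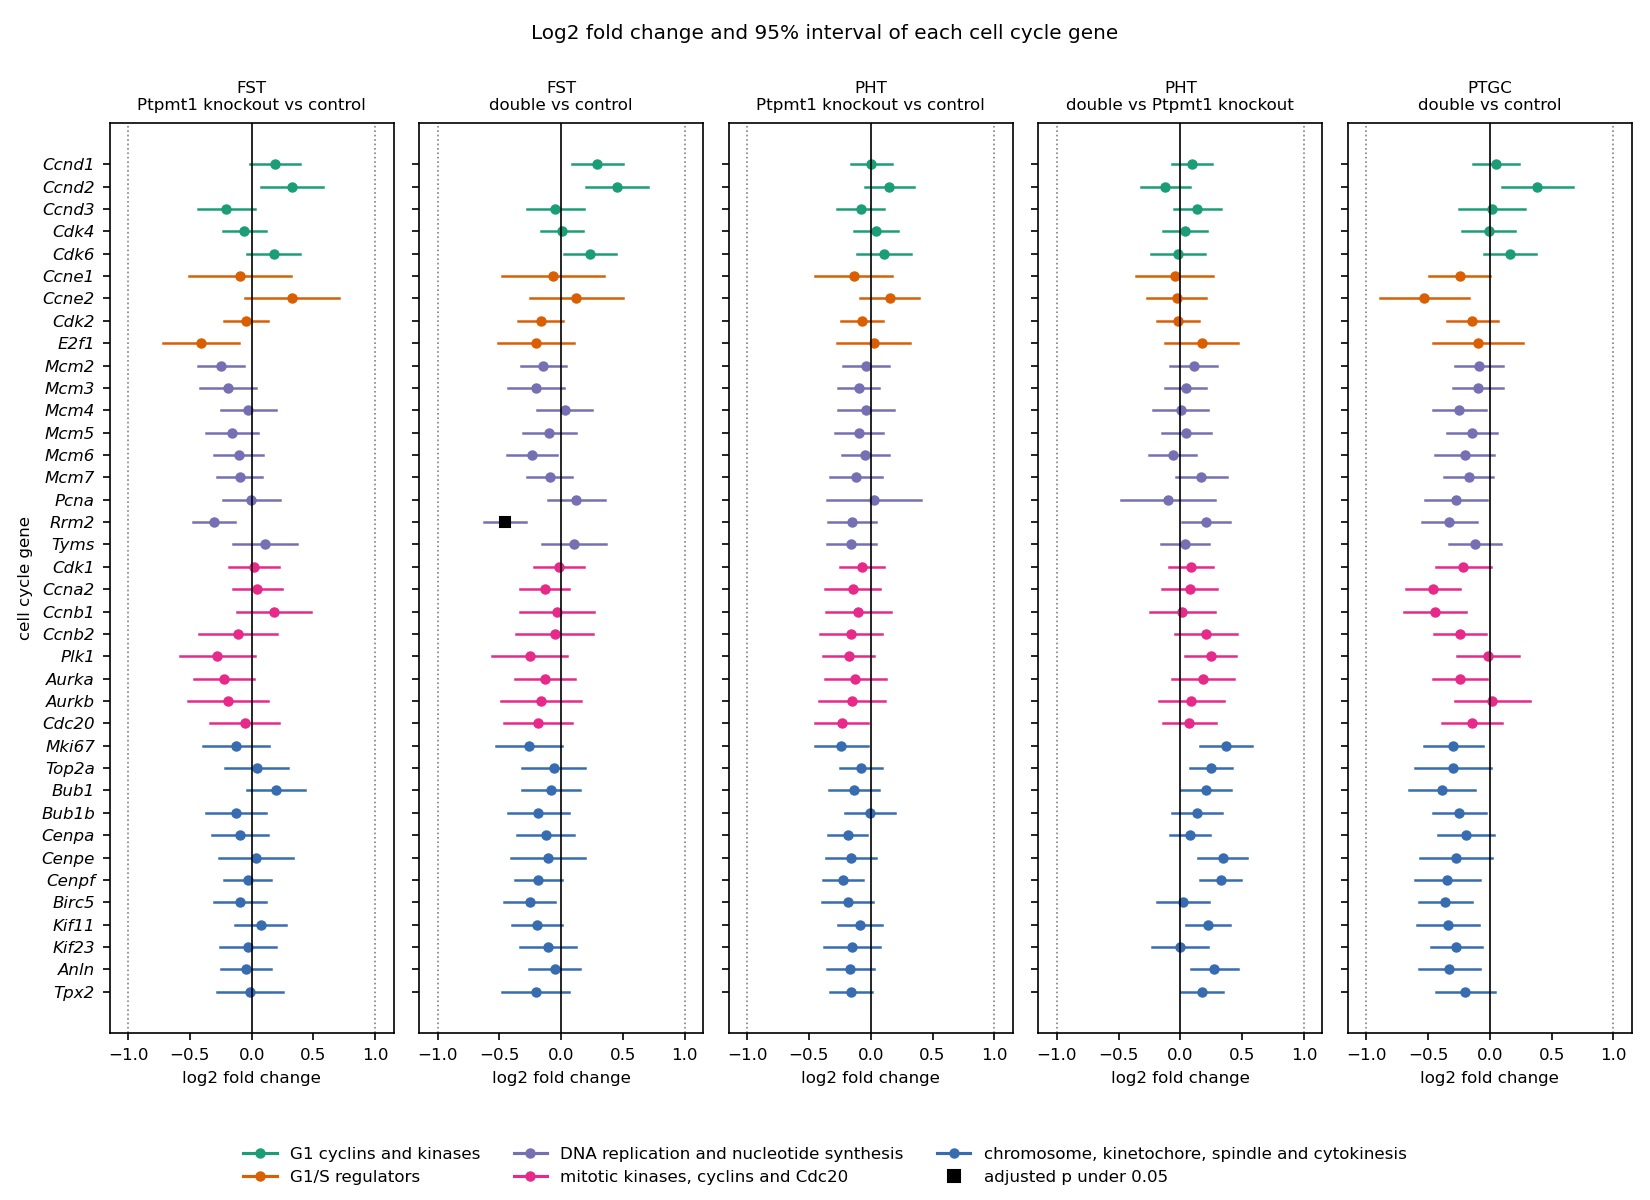
Points give the log2 difference of each of the 38 genes and bars its 95% interval in 5 comparisons, with the first-named group above 0, dotted lines at a 2-fold difference and a black square for the call. The only square is Rrm2 in FST double mutants, and each interval lies between the dotted lines.

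Of the 38 members, 3 lay above control without overlap in FST doubles, against 9.64% of all genes, and 2 in PTGC doubles, against 8.98%. These were all G1 cyclins and kinases. In PHT doubles the 5, against 16.2% of all genes, were Ccnd1 and 4 genes of the chromosome and spindle group, Top2a, Cenpe, Cenpf and Anln. In no table was the count of members above the share of all genes. Cyclin D2 (Ccnd2, chr6:127125162-127152193, − strand) is a regulatory subunit of Cdk4 and Cdk6. In FST its signal was 8534, 10028 and 8374 in double mutants, 7861, 8389 and 8404 in Ptpmt1 knockouts, 8992, 6725 and 7279 in Eif2a mutants and 6389, 5786 and 7575 in controls. The double mutant and Ptpmt1 knockout values all lay above the controls, with differences of +0.45 ± 0.12 (adjusted p = 0.198; 0.0321 in DESeq2) and +0.33 ± 0.12 (adjusted p = 0.238), neither passing in limma. In PTGC it was 12763, 14573 and 13583 in double knockouts and 8785, 10358 and 12474 in controls, again without overlap (+0.38 ± 0.13, adjusted p = 0.336). In PHT it was 10613 and 9986 in double knockouts, 11319, 10937 and 11313 in Ptpmt1 knockouts, 8839 and 9591 in Hri knockouts and 9113 and 11134 in controls, and here the Ptpmt1 knockouts straddled the higher control (+0.15 ± 0.09, adjusted p = 0.999).

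Cyclin D1 (Ccnd1), the D-type cyclin most closely tied to growth factor signals, had smaller differences. In FST it stood at 1576, 1662 and 1492 in double mutants, 1360, 1622 and 1430 in Ptpmt1 knockouts, 1340, 1452 and 1536 in Eif2a mutants and 1195, 1213 and 1470 in controls. Double mutants did not overlap controls (+0.29 ± 0.10, adjusted p = 0.321), and the Ptpmt1 knockouts did. In PTGC all 3 double knockouts (2360.1, 2331 and 2393) lay above all 3 controls (2256, 2294 and 2302), but by only +0.05 ± 0.09. In PHT the values were 2285 and 2315 in double knockouts, 2185, 2092 and 2192 in Ptpmt1 knockouts, 2059 and 2264 in Hri knockouts and 2238 and 2062 in controls. The groups were intermixed, except that both double knockouts were above the rest.

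The kinases Cdk4 and Cdk6 are the partners of these cyclins. Cdk6 had differences of +0.23 ± 0.10 in FST double mutants (adjusted p = 0.445) and +0.29 ± 0.10 in Eif2a mutants (adjusted p = 0.484). Cdk4 stayed between 2393 and 2983 across the 12 FST libraries and overlapped between the FST groups. Ccnd1, Ccnd2 and Cdk6 had positive differences in the doubles of all 3 tables against their own controls, and no test was made across tables. Of the 5 genes of this role, 4 had a positive difference in FST double mutants, with a median of +0.23, and 4 in PTGC double knockouts, with a median of +0.05. The exons of all 5 overlap an antisense gene that is also in the tables, as do those of 5 other members, and whether the counting used strand is not stated in the labels.

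E2f1 (chr2:154559407-154569892, − strand), the transcription factor freed from the retinoblastoma proteins, had few reads, with 41 in FST double mutant 2. Its signal was 190, 181 and 221 in FST double mutants, 145, 184 and 187 in Ptpmt1 knockouts, 184, 200 and 249 in Eif2a mutants and 223, 241 and 218 in controls. The Ptpmt1 knockouts all lay below the controls (-0.41 ± 0.15, adjusted p = 0.232), and the double mutants overlapped them only at one value. PHT double knockouts had 373 and 464, with 360, 364 and 383 in Ptpmt1 knockouts, 415 and 381 in Hri knockouts and 425 and 310 in controls, and in PTGC 297, 383 and 291 in double knockouts and 299, 441 and 308 in controls. The groups overlapped in both tables.

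Cyclin E2 (Ccne2), which activates Cdk2 at the entry to S phase, gave the largest negative difference of the PTGC comparison. It stood at 553, 519 and 535 in double knockouts and 754, 597 and 1029 in controls, with the controls spread widely (-0.53 ± 0.16, adjusted p = 0.289). In PHT Ptpmt1 knockouts it was 537, 619 and 558, against 472 and 558 in controls (+0.15 ± 0.11, adjusted p = 0.999). In the FST line it reached 581 in Ptpmt1 knockout 2, against 297 to 422 in the other knockouts and 315 to 350 in controls. Without Ptpmt1 knockout 3 the difference there was +0.57 and passed (adjusted p = 0.0295).

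Among the genes of DNA replication and nucleotide synthesis, Rrm2 carried the single call. Rrm2 (chr12:24708241-24714146, + strand) encodes the small subunit of ribonucleotide reductase, which makes deoxynucleotides for DNA synthesis, and its promoter is the first printed above. In FST its signal was 993, 924 and 929 in double mutants, 1061, 1018 and 1076 in Ptpmt1 knockouts, 1195, 1100 and 1125 in Eif2a mutants and 1186, 1315 and 1410 in controls. The double mutants were the lowest group without overlap with any other, and the Ptpmt1 knockouts lay below all the controls. The double mutant difference from control was -0.46 ± 0.08 (adjusted p = 0.0333 in limma, 0.0408 in edgeR, 0.00069 in DESeq2). The Ptpmt1 knockout difference was -0.31 ± 0.08 (adjusted p = 0.1197; 0.0170 in DESeq2; 0.0401 in limma without Ptpmt1 knockout 3), and the double mutants differed from the Eif2a mutants by -0.27 (adjusted p = 0.540).

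The Rrm2 call did not hold when any 1 of the 6 double mutant and control libraries was left out, with adjusted p between 0.0737 and 0.212 and a difference between -0.52 and -0.40. It was also lost with a term for sex (adjusted p = 0.116), when only the 2 groups were fitted (0.0598) and without the 2 libraries with few detected genes (0.102). In PTGC Rrm2 was 2056, 1709 and 1899 in double knockouts and 2204, 2408 and 2497 in controls (-0.33 ± 0.10, adjusted p = 0.289), again without overlap. In PHT it was 1915 and 2086 in double knockouts, 1646, 1676 and 1868 in Ptpmt1 knockouts, 2180 and 2458 in Hri knockouts and 1799 and 2041 in controls, and the Ptpmt1 knockouts overlapped the controls (-0.15 ± 0.09).

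Mcm2, a subunit of the helicase that opens origins, was 1342, 1392 and 1303 in FST double mutants, 1191, 1309 and 1260 in Ptpmt1 knockouts, 1247, 1267 and 1273 in Eif2a mutants and 1398, 1378 and 1709 in controls. Both single mutants lay below all controls (-0.25 ± 0.09, adjusted p = 0.224, and -0.24 ± 0.09, adjusted p = 0.506), while all 3 double mutants lay above all 3 Eif2a mutants. The interaction for Mcm2 was +0.34 ± 0.12 (unadjusted p = 0.0135, adjusted p = 0.620), so it did not pass. In PHT Mcm2 was 2098 and 2539 in double knockouts, 2134, 2192 and 2090 in Ptpmt1 knockouts, 2100 and 2357 in Hri knockouts and 2209 and 2183 in controls, and the Ptpmt1 knockouts overlapped the controls. In PTGC it was 2011, 2033 and 2012 in double knockouts and 2100.1, 2238 and 2102 in controls, a small difference without overlap (-0.09 ± 0.09). Tyms, which makes thymidylate, was 726, 751 and 653 in PHT Ptpmt1 knockouts and 779 and 802 in controls (-0.16 ± 0.09, adjusted p = 0.999).

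As a group, the 9 replication genes were all negative in PTGC double knockouts (median -0.17, 7 without overlap, against 9.05% of all genes) and in the FST Eif2a mutant (median -0.10). Of the 9, 8 were negative in each of the Ptpmt1 knockouts, with medians of -0.11 in FST and -0.09 in PHT. None of these passed. In the FST interaction all 9 were positive (median +0.14), with no call.

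**Figure D3:**
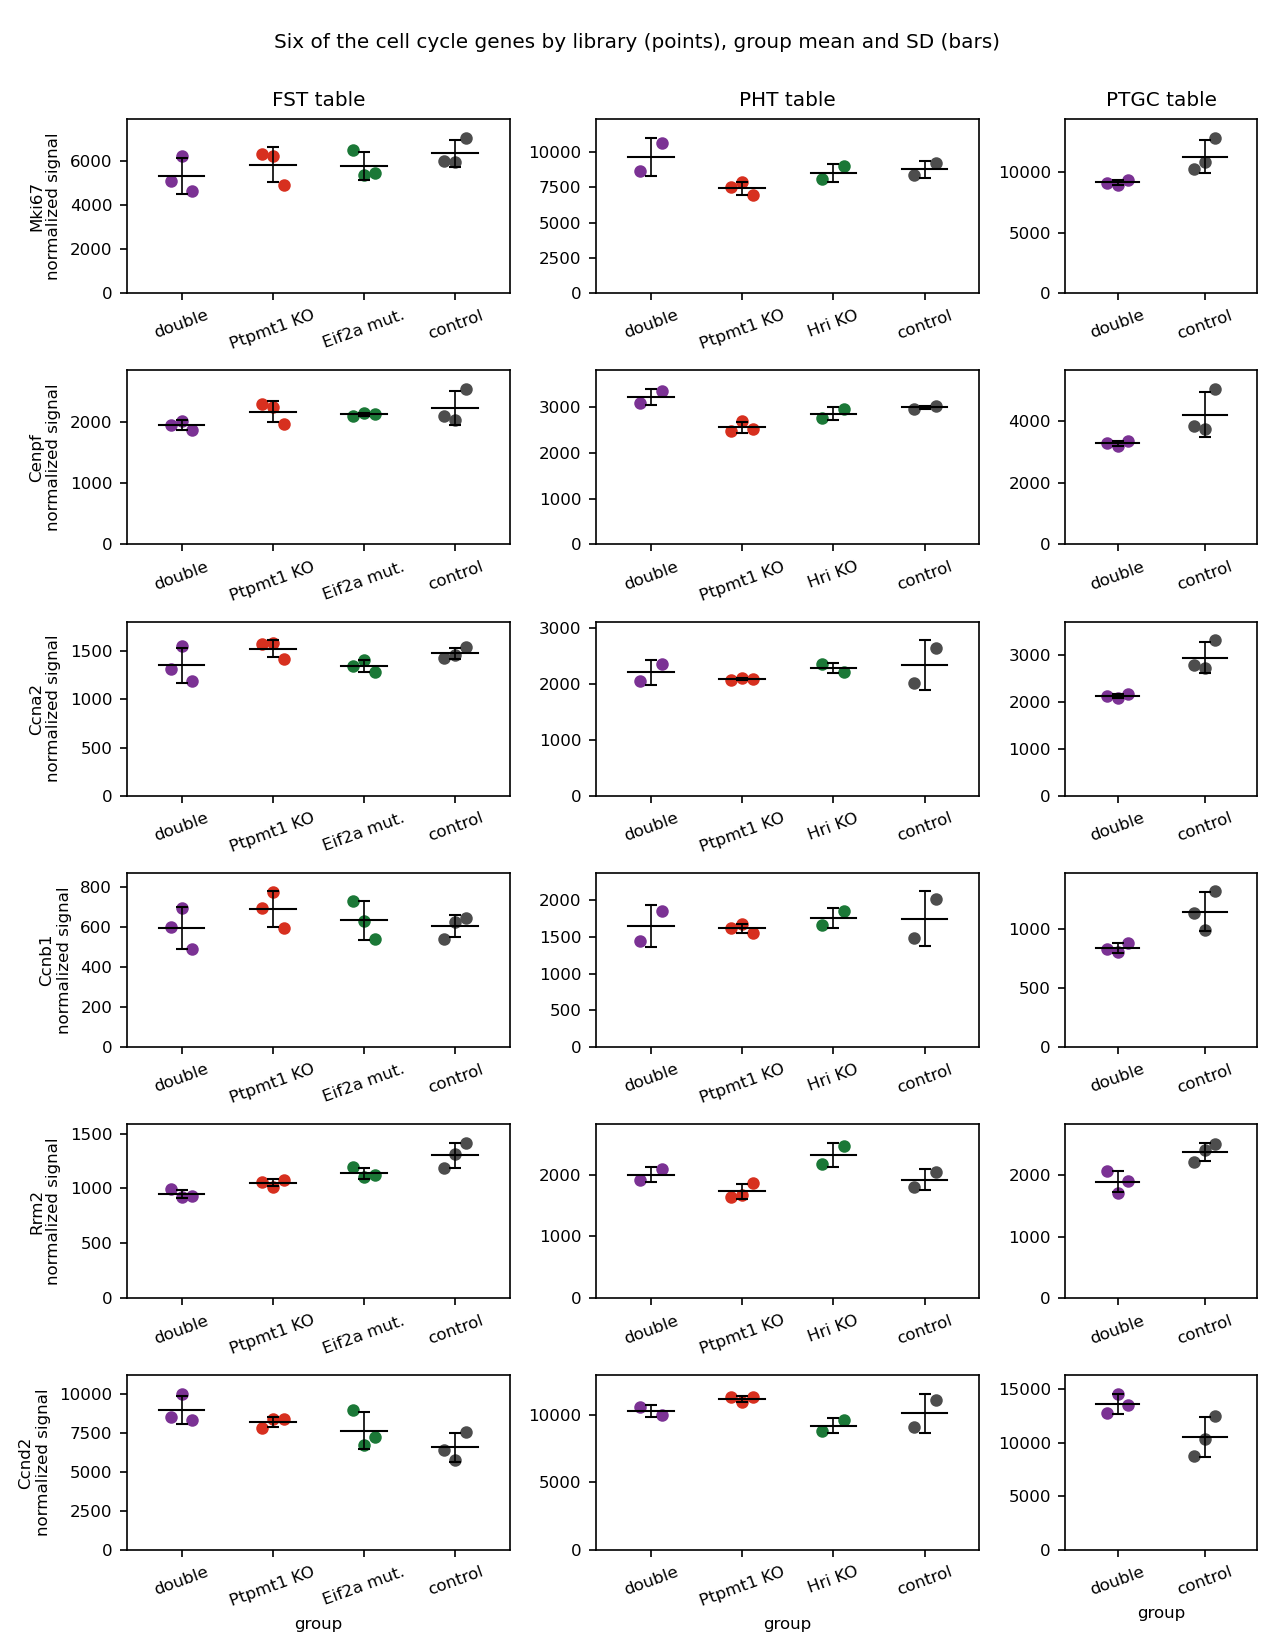
Signal per library for Mki67, Cenpf, Ccna2, Ccnb1, Rrm2 and Ccnd2, 1 panel per gene and table, with points for libraries, a line for the group mean and a bar for its SD. The 6 genes were picked after their values were seen. Ccna2 and Ccnb1 separate the PTGC groups, Rrm2 the FST double mutants and controls, and Mki67 and Cenpf the PHT double and Ptpmt1 knockouts.

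The mitotic kinases and cyclins differed most in the PTGC line. Cyclin A2 (Ccna2, chr3:36564865-36572150, − strand), which works with Cdk2 in S phase and with Cdk1 in G2, stood at 2119, 2079 and 2174 in PTGC double knockouts and 2785, 2714 and 3309 in controls (means 2124 ± 47.9 and 2936 ± 325, SD, n = 3 each). The groups did not overlap, and the controls had the wider spread. The difference of -0.46 ± 0.10 had an adjusted p of 0.0828 in limma, 0.0422 in edgeR and 0.00680 in DESeq2, and limma's adjusted p ran between 0.0242 and 0.383 with 1 library left out. Its exon overlaps that of Exosc9 on the other strand. In FST Ccna2 was 1317, 1556 and 1195 in double mutants and 1426, 1466 and 1542 in controls, which overlapped.

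Cyclin B1 (Ccnb1, chr13:100778650-100786570, − strand), the partner of Cdk1 at mitotic entry, was 830, 801 and 879 in PTGC double knockouts and 1130, 990.1 and 1313 in controls (-0.44 ± 0.12, adjusted p = 0.180; 0.0462 in DESeq2). FST values were 598, 694 and 488 in double mutants, 694, 771 and 592 in Ptpmt1 knockouts, 729, 626 and 538 in Eif2a mutants and 539, 625 and 643 in controls. PHT values were 1444 and 1854 in double knockouts, 1619, 1675 and 1563 in Ptpmt1 knockouts, 1661 and 1853 in Hri knockouts and 1493 and 2015 in controls. No FST or PHT group separated from its controls, and the named pseudogene of Ccnb1 is not in the tables.

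Cdk1, the kinase that drives mitosis, was 1518, 1356 and 1611 in PTGC double knockouts and 1674, 1659 and 1875 in controls (-0.22 ± 0.10, adjusted p = 0.437), without overlap. Its FST values were 1051, 955 and 1013 in double mutants, 1022, 1170 and 914 in Ptpmt1 knockouts, 995, 1043 and 930 in Eif2a mutants and 950, 1027 and 1076 in controls. Its PHT values were 1436 and 1620 in double knockouts, 1374, 1507 and 1429 in Ptpmt1 knockouts, 1580 and 1615 in Hri knockouts and 1433 and 1590 in controls. Both tables showed intermixed groups, with differences of -0.02, +0.02 and -0.04 in the 3 FST mutants against control.

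Aurka, a kinase of the spindle poles, was 411, 459 and 409 in FST Ptpmt1 knockouts and 448, 464 and 593 in controls (-0.22 ± 0.11, adjusted p = 0.408). Cdc20, which activates the ligase that ends mitosis, was 1036, 943 and 911 in PHT Ptpmt1 knockouts and 1033 and 1240 in controls (-0.23 ± 0.10, adjusted p = 0.999). Both pairs of groups touched or overlapped. Of the 8 genes of this role, 8 were negative in FST double mutants (median -0.13) and in PHT Ptpmt1 knockouts (median -0.15), 7 in PTGC double knockouts (median -0.23), and 8 were positive in PHT double knockouts against the Ptpmt1 knockout (median +0.09).

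The 12 genes of the chromosome, kinetochore, spindle and cytokinesis shared 1 sign in several comparisons. All 12 were negative in PTGC double knockouts, with a median of -0.30, 8 at an unadjusted p under 0.05 (11.5% of all genes) and 9 without overlap (9.05%). All 12 were negative in PHT Ptpmt1 knockouts, with a median of -0.16, 3 at that p (4.79%) and 7 without overlap (11.6%), and in FST double mutants, with a median of -0.16. In PHT double knockouts against the Ptpmt1 knockout 11 were positive, with a median of +0.22, 8 at that p (8.29%) and 8 without overlap (11.9%). None was called in these 4 comparisons.

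Mki67 (chr7:135689784-135716361, − strand), the Ki-67 protein that coats mitotic chromosomes and marks cycling cells, followed this pattern. In PTGC it was 9115, 8944 and 9341 in double knockouts and 10209, 10784 and 12830 in controls (-0.30 ± 0.11, adjusted p = 0.362), without overlap. PHT values were 8667 and 10604 in double knockouts, 7479, 7841 and 6959 in Ptpmt1 knockouts, 8051 and 8969 in Hri knockouts and 8346 and 9183 in controls, so the Ptpmt1 knockouts were the lowest 3 of the 9 libraries. Their difference from control was -0.24 ± 0.10 (adjusted p = 0.994), and the double knockouts exceeded them by +0.37 ± 0.10 (adjusted p = 0.209; 0.0212 in DESeq2). FST values were 5100, 6210 and 4636 in double mutants, 6323, 6241 and 4899 in Ptpmt1 knockouts, 6507, 5350 and 5474 in Eif2a mutants and 5993, 5969 and 7054 in controls. The FST groups overlapped, with a difference of -0.26 ± 0.13 in double mutants (adjusted p = 0.505) and -0.13 ± 0.13 in Ptpmt1 knockouts (adjusted p = 0.729, 95% interval -0.39 to 0.14).

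Cenpf (chr1:189640606-189688086, − strand), a kinetochore and nuclear matrix protein of G2 and mitosis, had the same order in PHT. It was 3084 and 3337 in double knockouts, 2463, 2694 and 2519 in Ptpmt1 knockouts, 2751 and 2947 in Hri knockouts and 2960 and 3012 in controls, and the Ptpmt1 knockouts were below all other libraries while the double knockouts were above them. The Ptpmt1 knockout differed from control by -0.22 ± 0.08 (adjusted p = 0.806), the double from the Ptpmt1 knockout by +0.33 ± 0.08 (adjusted p = 0.128; 0.0178 in DESeq2), and the interaction was +0.40 ± 0.11 (unadjusted p = 0.00353, adjusted p = 0.707). Mki67 had an interaction of +0.41 ± 0.15 (unadjusted p = 0.0140, adjusted p = 0.998). Neither passed over all genes. In PTGC Cenpf was 3299, 3206 and 3348 in double knockouts and 3835, 3736 and 5049.9 in controls (-0.34 ± 0.12, adjusted p = 0.343).

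Top2a, the topoisomerase that untangles sister chromatids, was 6969 and 7803 in PHT double knockouts, 6126, 6375 and 6140 in Ptpmt1 knockouts, 6458 and 6874 in Hri knockouts and 6691 and 6447 in controls. The double knockouts were the highest 2 libraries and the Ptpmt1 knockouts the lowest 3, with +0.25 ± 0.08 between them (adjusted p = 0.337). In PTGC it was 7477, 7044 and 7788 in double knockouts and 7765, 8386 and 11726 in controls, which overlapped by a single pair of libraries (-0.30 ± 0.14, adjusted p = 0.443). In FST it was 4657, 5441 and 4278 in double mutants, 5291, 5635 and 4477 in Ptpmt1 knockouts, 5708, 4619 and 4735 in Eif2a mutants and 4647, 4616 and 5711 in controls, with all groups overlapping.

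Birc5 (survivin), which joins Aurora B in the chromosomal passenger complex, was 713, 661 and 712 in PTGC double knockouts and 922, 925 and 836 in controls, without overlap (-0.36 ± 0.10, adjusted p = 0.201). In FST it was 456, 420 and 453 in double mutants and 490, 510 and 590 in controls (-0.25 ± 0.10, adjusted p = 0.397). Bub1, a kinase of the spindle checkpoint, lay on opposite sides of its controls in most FST Ptpmt1 knockouts and in the double mutants. It was 573, 561 and 603 in double mutants, 757, 799 and 573 in Ptpmt1 knockouts, 732, 641 and 660 in Eif2a mutants and 611, 613 and 618 in controls. Ptpmt1 knockout 3 lay with the double mutants. The double mutants differed from the Ptpmt1 knockout by -0.28 ± 0.11 (adjusted p = 0.267), and by -0.43 without Ptpmt1 knockout 3 (adjusted p = 0.0209), while the interaction was -0.42 ± 0.16 (unadjusted p = 0.0166, adjusted p = 0.644).

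A total of 11 members had negative differences in the doubles of all 3 tables against their own controls: Birc5, Ccna2, Ccnb1, Ccne1, Cdc20, Cdk2, Cenpa, Kif23, Mcm3, Mcm5 and Mcm6. The Ptpmt1 knockouts of FST and PHT shared a negative sign in 23 members and a positive sign in Ccnd1, Ccnd2, Ccne2 and Cdk6. The tables share no control libraries, and no test was made of these counts of signs.

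Genes around the members were read from wider lists. Of 54 tested genes of mitosis, 47 were negative in PTGC double knockouts (24 lower at an unadjusted p under 0.05, median -0.24) and 50 in PHT Ptpmt1 knockouts (12 lower, median -0.15), against 11.5% and 4.79% of all genes under that p in either direction. In FST Ptpmt1 knockouts 28 were negative and 26 positive (7 lower and 1 higher, against 13.4% of all genes, median -0.05), and in FST double mutants 45 were negative (12 lower, against 10.1%, median -0.13). In PHT double against Ptpmt1 knockouts 50 of the 54 were positive (15 higher, against 8.29%, median +0.16). Of 40 tested genes of origin licensing and replication, 36 were negative in PTGC (13 lower, median -0.23), 29 in PHT Ptpmt1 knockouts (4 lower) and 21 in FST Ptpmt1 knockouts (7 lower and 3 higher), to be read against the same shares of all genes. No gene of either list was called in these comparisons. Of 17 E2F, DREAM and MYC factors, none was called in any of the 13 comparisons, and 0 were under an unadjusted p of 0.05 in PTGC.

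Of 8 tested CDK inhibitors and pocket proteins, 1 was called in 1 comparison, Cdkn1a in PTGC, where 0.743% of all genes were called. Cdkn1a (chr17:29090976-29100727, + strand) encodes p21, an inhibitor of cyclin-dependent kinases. It rose to 535, 409 and 469 in PTGC double knockouts against 243, 268 and 183 in controls (+1.03 ± 0.16, adjusted p = 0.00668), and stayed called in 5 of 6 fits with 1 library left out, all but that without double knockout 3 (0.0748). In FST it was 251, 208 and 290 in double mutants, 197, 194 and 309 in Ptpmt1 knockouts, 221, 230 and 211 in Eif2a mutants and 145, 119 and 147 in controls. Each FST mutant library lay above each control, with +0.85 in double mutants (adjusted p = 0.0770; 0.00241 in DESeq2), +0.74 ± 0.18 in Ptpmt1 knockouts (adjusted p = 0.0890; 0.00407 in DESeq2) and +0.69 in Eif2a mutants (adjusted p = 0.303). In PHT it was 360 and 318 in double knockouts, 308, 328 and 440 in Ptpmt1 knockouts, 287 and 276 in Hri knockouts and 256 and 273 in controls. The PHT differences, +0.35 in doubles (adjusted p = 0.755) and +0.42 in Ptpmt1 knockouts (adjusted p = 0.806), did not pass.

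Histone cluster genes, whose main transcripts are made in S phase, were lower in the FST Ptpmt1 knockout. Of 56 tested, 50 were negative there, 39 at an unadjusted p under 0.05, all lower, against 13.4% of all genes, with a median of -0.53. Of the 56, 1 was called, against 0.504% of all genes: Hist1h1e, a linker histone whose exon overlaps that of Hist1h2be, fell to 893, 1082 and 1025 in Ptpmt1 knockouts against 1372, 1250 and 1633 in controls (-0.50 ± 0.10, adjusted p = 0.0494), and lost the call in 5 of 6 fits with 1 library left out. The summed share of the clusters was 0.273% to 0.318% in double mutants, 0.208%, 0.265% and 0.310% in Ptpmt1 knockouts, 0.249% to 0.303% in Eif2a mutants and 0.334%, 0.336% and 0.368% in controls. In this share each FST mutant library lay below each control. In the Eif2a mutant 51 of the 56 were negative (median -0.29, 15 lower at an unadjusted p under 0.05, against 7.97% of all genes). In the double mutants 49 were negative (median -0.24, 8 lower and 1 higher at that p, against 10.1%), with none called in either. The interaction was positive with a median of +0.57, 31 at an unadjusted p under 0.05, against 7.06% of all genes, and 0 called. In the PHT Ptpmt1 knockout 38 of 66 were positive (median +0.03, 3 at an unadjusted p under 0.05, all higher), and in PTGC 40 of 57 were negative (median -0.07, 0 at that p). In the PHT Hri knockout 53 of 66 were negative (median -0.20, 14 lower at that p, against 3.24% of all genes), and PHT double knockouts lay above the Hri knockout in 58 of 66 (median +0.29, 21 higher at that p, against 5.83%), with none called. Erythroid markers were lower in the FST Ptpmt1 knockout as well, 12 of 12 with a median of -0.59, and their part in the histone values was not tested.

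**Figure D4:**
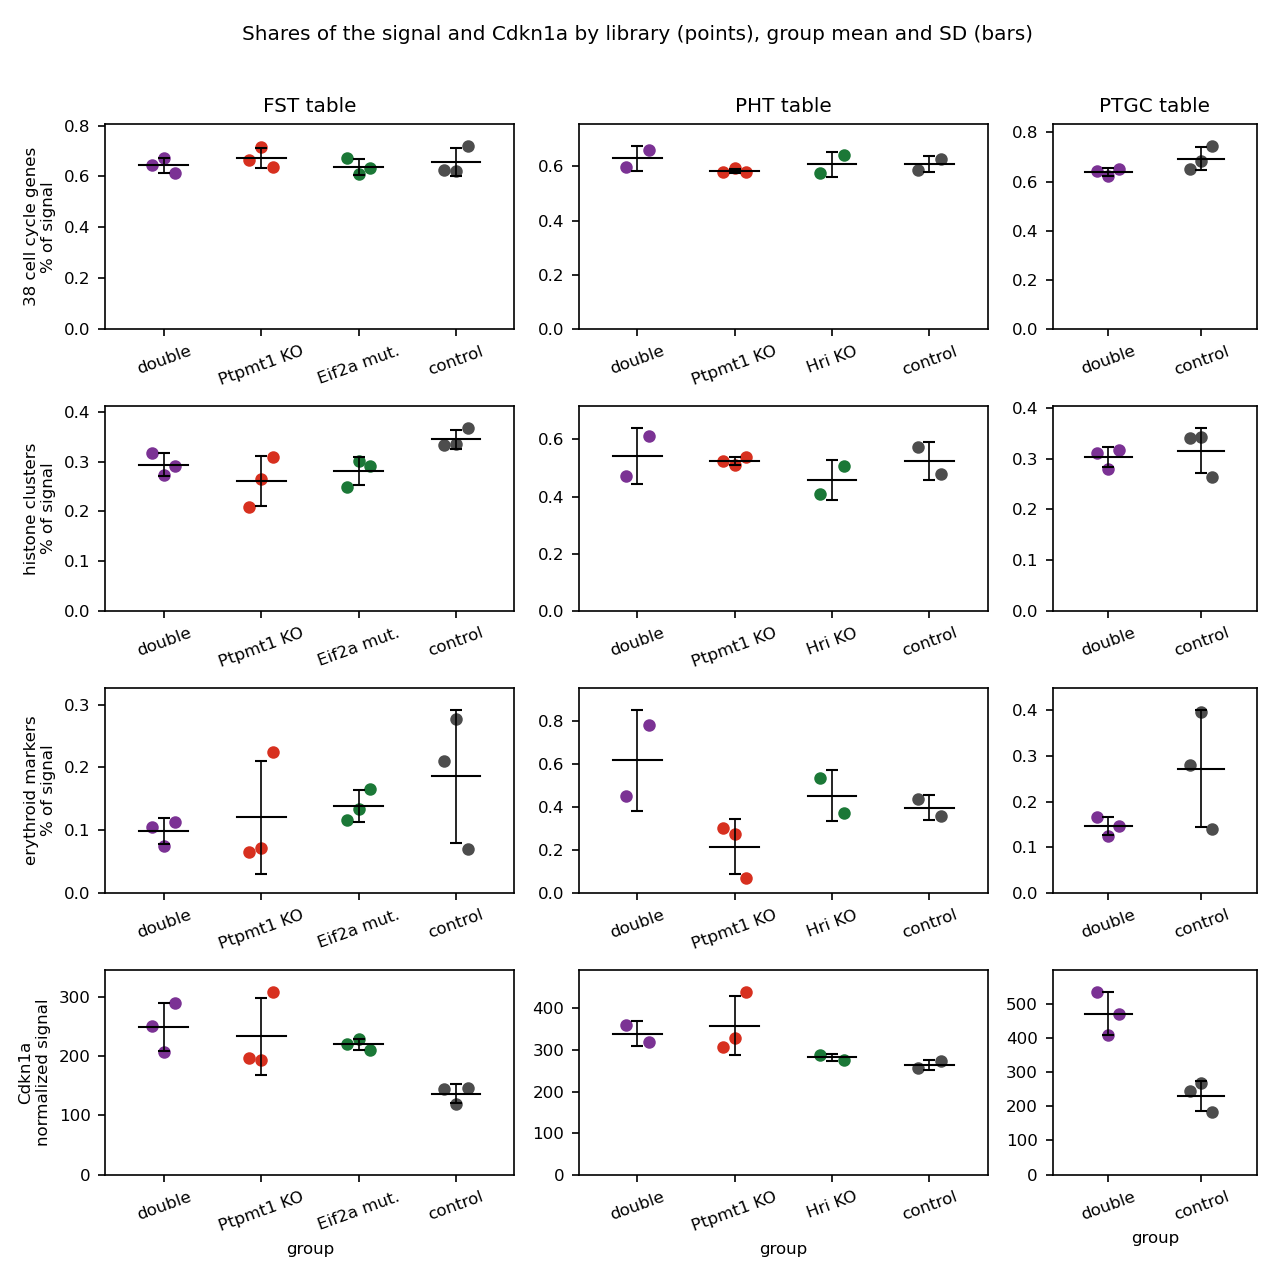
Panels give, per library and table, the summed share of signal in percent of the 38 genes, of the histone clusters and of 12 erythroid markers, and the signal of Cdkn1a, with points for libraries and a line and bar for the group mean and SD. The PTGC double knockouts lie below their controls in the cell cycle share (0.622% to 0.651%) and above them in Cdkn1a (409 to 535). The FST Ptpmt1 knockouts, Eif2a mutants and double mutants all lie below the controls in the histone share.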

How the data were processed

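Nuclear RNA libraries of mouse cardiomyocytes were made with a kit that depletes ribosomal RNA, per the labels' protocols. Reads were aligned with STAR 2.5.3a to mm10 and normalised with DESeq2 1.12.4, per the submitters' processing notes. The labels and notes do not name the counter, the annotation or a strand setting. The deposited tables hold a signal per gene, the authors' counts divided by a size factor. Each value was a whole multiple (within 0.1) of what 1 read is worth in its library, which gave back the reads (100% of values whole). No column lacked a sample (0).

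The 38 genes and the wider lists were chosen with earlier results of these data known. Each table was analysed separately with limma 3.58.1 (R 4.3.3) on log2(value + 1), with an intensity trend, all groups of the table in 1 fit, two-sided tests and Benjamini-Hochberg adjustment over all genes at 10 or more in the number of libraries of the smallest group (13896 in FST, 14965 in PHT, 14128 in PTGC). The call threshold was an adjusted p of 0.05. Alternatives were edgeR 4.0.16 and DESeq2 1.42.0 on the recovered reads, a pseudocount of 5, no filter, TMM rescaling, a sex term, only the compared groups, and leaving out libraries. The scripts were tested on simulated data. Named genes were 8 fixed members with values in every table (Mki67, Top2a, Cdk1, Ccnb1, Ccnd1, Ccnd2, Mcm2, E2f1), all called genes and, for the Ptpmt1 knockouts and the PTGC doubles, the member of each role with the smallest p. Others named (such as Cenpe, Kif11 and Mcm6), the comparisons given counts without overlap, and the printed promoters were chosen after their values were seen. No pair of libraries of 1 group agreed within sampling noise (chi-square per degree of freedom at least 2.17). Coordinates are from GENCODE vM21 (GRCm38) and promoter sequences from RefSeq. Spreadsheet dates had replaced 26 gene symbols in the tables, which were left out of the lists.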

Additional observations from a re-analysis of the deposited data

How the results depend on the processing

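Of 94 settings other than leaving out 1 library, 86 gave a count of called members within 1.5 times the reported one. The other 8 were as follows. In FST double mutants against control, where 1 was reported, DESeq2 gave 2, and fitting only the compared groups, adding a sex term, or leaving out both libraries with few detected genes (double mutant 2 and Eif2a mutant 1) gave 0 each. DESeq2 gave 1 in FST Ptpmt1 knockouts against control and 2 in PHT double against Ptpmt1 knockouts. In PTGC edgeR gave 1 and DESeq2 gave 2. The cause was not tested. Of 79 fits that each left out 1 library, 68 kept the count. The counts ran between 0 and 3 in FST Ptpmt1 knockouts against control, were 0 in each fit of FST double mutants against control, ran between 0 and 1 in FST and in PHT double against Ptpmt1 knockouts, between 0 and 4 in PTGC, and were 0 elsewhere. The median over the 38 genes kept its sign in each of these fits in FST double mutants, PHT Ptpmt1 knockouts and PTGC against control and in the PHT interaction, and changed it in at least 1 fit in the other 9 comparisons, FST Ptpmt1 knockouts against control (between -0.09 and 0.04) and PHT double against Ptpmt1 knockouts (lowest -0.0005) among them. No paired analysis was possible because the labels give sample numbers that groups do not share. The fit of only the compared groups was not run for the interactions or for PTGC. Groups of 2 or 3 libraries and 1887978 reads in the shallowest library limit what small differences could be seen.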
